A study of Mus musculus with 4 samples.

Results

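The nuclear genes of oxidative phosphorylation (OXPHOS) were followed through an ATAC-seq experiment, in which the Tn5 transposase marks open chromatin. Peaks from the 4 libraries were joined into 1 region wherever they shared 1 bp or more. A region belonged to the OXPHOS set when the gene assigned to its highest peak had a symbol starting with Nduf, Uqcr, Cox plus a digit or Atp5, or was Sdha, Sdhb, Sdhc or Sdhd. By this rule 197 of 60710 regions were chosen, and they carried the names of 91 genes. Peak heights entered the rule only to decide which peak names a region, and the treatment groups did not enter it.

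The cells were wild-type BMDMs, macrophages grown from mouse bone marrow in 6 days of culture with L929 supernatant, which supplies macrophage colony-stimulating factor. The donors were 8 to 12 weeks of age. The control group was differentiated and left without IL-4 (2 libraries), and the IL-4 group received the same differentiation and then 20 ng/ml IL-4 for 1 h (2 libraries). IL-4 activates the transcription factor STAT6, and the experiment asked whether chromatin accessibility follows. All results describe cultured macrophages of 1 genotype, and the labels do not say whether replicates shared a donor, so that p-values measure the spread between these libraries.

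The respiratory chain sits in the inner mitochondrial membrane. Complex I takes electrons from NADH and complex II takes them from succinate, complex III passes them to cytochrome c, complex IV hands them to oxygen, and complex V, the ATP synthase, uses the resulting proton gradient to make ATP. Most subunits are encoded in the nucleus and are needed in almost every cell type. Their promoters are known for sites of the transcription factors NRF1, GABP, YY1 and ERR, and macrophages polarized by IL-4 are known for a reliance on oxidative metabolism that builds up over longer times than the one sampled here.

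The libraries held between 39462 and 45250 peaks each. Every peak carries a score that was read as −log10 of the MACS2 q-value and is called peak height. It measures the evidence for a peak within its own library, grows with sequencing depth and with the length of the open stretch, and is not a read count. The depth of the libraries is unknown. IL-4 replicate 2 had the lowest median height of all its regions, 6.43 against 7.46 to 8.25 in the other libraries. Of 8 macrophage symbols searched, 6 named at least 1 region. Only 3, Emr1, Cd68 and Fcgr1, had a promoter peak in all 4 libraries. Csf1r, Spi1, Itgam and Mertk did not, nor did Adgre1, which is another symbol for Emr1. None of the T cell, B cell, fibroblast, erythroid or epithelial markers searched had a promoter peak in all 4 libraries, although 2 of 5, 1 of 4, 2 of 4, 1 of 3 and 2 of 2 of them named some region. Of the neutrophil markers, 4 of 5 named a region and 1, S100a8, had a promoter peak in all 4 libraries. A smaller share of cells with an open site and a weaker opening in each cell cannot be told apart in such bulk libraries.

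Promoters of 5 core subunit genes are printed first, because the windows of Atp5e, Sdhb and Sdhd hold the most kinds of motif among core genes, 3 each. Atp5b and Atp5c1 hold 2 kinds, as do Ndufs7, Ndufs8, Sdha and Uqcrfs1, and were taken from these by alphabetical order. Each is the RefSeq window from 250 bases before to 50 bases after the transcription start site (TSS), 5′ to 3′ on the strand of the gene, on GRCm38.p6, the assembly of mm10. Capitals mark matches to the motifs spelled out further on, in the relaxed form for NRF1. Atp5e, the epsilon subunit of ATP synthase, lies at chr2:174464052-174464351 on the minus strand and holds SP/KLF, GABP/ETS and NFY matches. Sdhb, the iron-sulphur subunit of complex II, lies at chr4:140961021-140961320 on the plus strand and holds the same 3 kinds. Sdhd, a membrane anchor of complex II, lies at chr9:50603800-50604099 on the minus strand and holds NRF1, GABP/ETS and ERR matches. Atp5b, the catalytic beta subunit of ATP synthase, lies at chr10:128083057-128083356 on the plus strand and holds repeated NFY matches and 1 SP/KLF match. Atp5c1, the rotating gamma subunit, lies at chr2:10080383-10080682 on the minus strand and holds an NFY and an NRF1 match.
Atp5e promoter: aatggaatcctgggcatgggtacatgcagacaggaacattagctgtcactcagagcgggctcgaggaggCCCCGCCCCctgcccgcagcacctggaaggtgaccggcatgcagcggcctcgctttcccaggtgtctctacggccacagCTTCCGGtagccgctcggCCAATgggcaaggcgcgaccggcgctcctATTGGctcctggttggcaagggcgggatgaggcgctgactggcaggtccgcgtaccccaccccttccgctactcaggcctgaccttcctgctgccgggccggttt
Sdhb promoter: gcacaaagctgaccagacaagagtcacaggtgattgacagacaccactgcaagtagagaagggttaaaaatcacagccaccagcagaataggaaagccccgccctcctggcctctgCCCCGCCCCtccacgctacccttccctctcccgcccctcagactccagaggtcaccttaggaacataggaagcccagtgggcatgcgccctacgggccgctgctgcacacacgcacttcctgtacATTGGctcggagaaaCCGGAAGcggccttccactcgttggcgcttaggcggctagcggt
Sdhd promoter: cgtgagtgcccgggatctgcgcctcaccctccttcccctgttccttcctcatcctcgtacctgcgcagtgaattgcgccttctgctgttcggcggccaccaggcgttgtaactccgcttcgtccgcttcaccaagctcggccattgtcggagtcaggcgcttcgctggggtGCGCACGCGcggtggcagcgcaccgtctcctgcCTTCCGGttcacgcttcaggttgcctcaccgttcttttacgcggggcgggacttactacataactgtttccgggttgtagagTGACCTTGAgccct
Atp5b promoter: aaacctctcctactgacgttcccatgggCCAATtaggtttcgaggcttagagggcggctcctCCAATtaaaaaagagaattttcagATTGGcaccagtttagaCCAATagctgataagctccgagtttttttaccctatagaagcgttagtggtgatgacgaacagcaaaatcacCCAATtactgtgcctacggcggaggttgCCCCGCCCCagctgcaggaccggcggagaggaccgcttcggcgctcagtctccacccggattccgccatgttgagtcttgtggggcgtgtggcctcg
Atp5c1 promoter: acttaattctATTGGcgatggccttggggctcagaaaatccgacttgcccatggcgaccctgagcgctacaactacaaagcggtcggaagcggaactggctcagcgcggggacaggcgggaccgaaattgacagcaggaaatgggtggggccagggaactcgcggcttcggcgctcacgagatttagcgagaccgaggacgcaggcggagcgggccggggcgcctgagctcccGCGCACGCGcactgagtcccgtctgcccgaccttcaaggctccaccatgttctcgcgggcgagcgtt

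Promoters were the commonest class of OXPHOS regions, although not the majority. Of the 197 regions, 80 (40.6%) were annotated as promoters, against 18.8% of all regions. A further 53 lay in introns, 46 between genes, 5 in exons, 4 in 5′ UTRs, 5 in 3′ UTRs and 4 at transcription ends. All 4 libraries had a peak in 99 OXPHOS regions (50.3%), against 41.9% of all regions. Among promoters the share was 62 of 80 (77.5%) against 69.4% of all 11415 promoter regions, whereas for the other OXPHOS regions it was 37 of 117 (31.6%) against 35.5%. Of the 26 OXPHOS regions found in 3 libraries, 15 (57.7%) were missing in IL-4 replicate 2, the library with the lowest heights, against 43.6% of all such regions. The libraries contributed similar numbers of OXPHOS promoters, 72 and 73 in the controls and 74 and 70 after IL-4. Over all OXPHOS regions the controls had 157 and 143 and the IL-4 libraries 143 and 128. An exact permutation test of 2 against 2 libraries cannot reach a p under 0.05, so these counts carry no test.

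**Figure D1:**
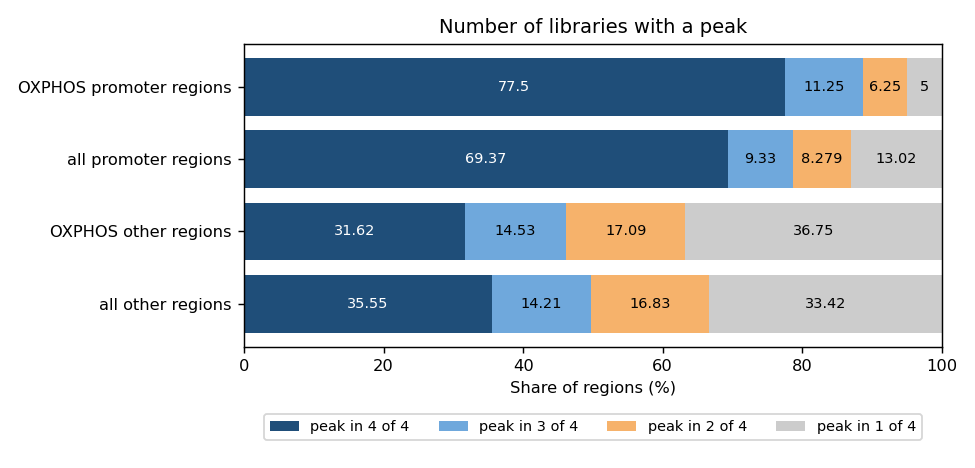
Horizontal bars give the share of regions (%) with a peak in 4, 3, 2 or 1 of the 4 libraries, for the 80 OXPHOS promoter regions, all 11415 promoter regions, the 117 other OXPHOS regions and all other regions. The OXPHOS promoters have the longest bar for 4 of 4 libraries, 77.5%.

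The annotation names only 1 gene per region, so promoters were also looked up from the genes. Of 106 OXPHOS genes with a RefSeq transcript, 79 (74.5%) had a promoter window that overlapped a region found in all 4 libraries, against 40.6% of 21000 protein-coding genes. A further 11 windows overlapped a region of 1 to 3 libraries and 16 overlapped none. The 16 included subunit forms known for restricted expression, namely Cox4i2, Cox6a2, Cox6b2, Cox7b2, Cox8b, Cox8c and Ndufa4l2. They also included Atp5pb, Atp5l, Cox7b, Ndufa6, Ndufb5, Ndufs7 and Ndufs8, which encode subunits in general use, and Atp5g2 and Cox14. No overlap means only that no peak was listed there, and the promoter region named for Atp5l, for example, lay outside its window at −526 bp. Of the 15 genes in no OXPHOS region, 6 had a window open in all 4 libraries under another gene name. These were Atp5md (named Pdcd11 in the peak list), Cox11 (Stxbp4), Ndufaf8 (Enthd2), Ndufb1 (Cpsf2), Ndufb11 (Rbm10) and Atp5mpl, which the list holds as 2010107E04Rik.

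Many OXPHOS promoters were shared with a neighbour. The TSS of a gene on the opposite strand lay head to head within 1000 bp for 37 of the 106 OXPHOS genes (34.9%), against 13.8% of all protein-coding genes. Among genes whose window was open in all 4 libraries the shares were 32 of 79 (40.5%) and 23.9%. Sdhd faced Timm8b, a chaperone of mitochondrial import, across 52 bp. Ndufs1 faced Eef1b2 across 9 bp and Ndufs3 faced Kbtbd4 across 19 bp. Atp5j, a peripheral stalk subunit of ATP synthase, faced Gabpa across 102 bp, and Gabpa encodes the DNA-binding subunit of GABP. The region named for Gabpa, which covered the whole Atp5j promoter window, had heights of 39.02 and 26.76 in the controls and 28.06 and 27.16 after IL-4. A separate lower region named for Atp5j, farther on the side of Gabpa, had no peak in control replicate 1, 3.83 in control replicate 2, and 4.23 and 2.03 after IL-4. A peak between such genes cannot be assigned to one of them.

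The core set was a chosen list of subunits. It holds catalytic and central proteins but also non-catalytic ones such as Cox4i1, Cox5a and Cox5b. Among these core subunits, the promoter peaks of Atp5e, Ndufv2, Uqcrc2 and Uqcrfs1 were the highest on average. Of 22 core genes, 20 had a promoter region, and 19 of these had one in all 4 libraries. Heights are given as deposited, for control replicates 1 and 2 and then for IL-4 replicates 1 and 2. Atp5e had the highest core promoter peak, with 30.79, 29.01, 40.37 and 23.95. Ndufv2, a subunit of the NADH-oxidizing module, had 25.5, 31.19, 20.5 and 21.89. For Atp5e the groups overlapped. For Ndufv2 both IL-4 values lay below both controls as deposited, but the groups overlapped after normalisation. Uqcrc2, a structural core protein of complex III, had 22.1, 22.74, 27.36 and 23.01, with both IL-4 values above both controls as deposited and after normalisation. Uqcrfs1, the Rieske iron-sulphur protein, had 28.12, 19, 19.55 and 24.77, with overlapping groups. For each of these 4 genes the highest library exceeded the lowest by 1.24-fold to 1.69-fold. The widest range was that of Cox5b, a subunit of complex IV, which had 11.37, 20.34, 10.29 and 4.55, a 4.47-fold range.

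At the low end of mean height stood Ndufs3, followed by Atp5a1, Uqcrc1 and Ndufs1. Ndufs3 and Ndufs1 both encode subunits of the peripheral arm of complex I. Ndufs3 had 3.34, 3.74, 9.26 and 5.8. Ndufs1 had 5.24, 5.66, 13.47 and 7.69. In both genes the IL-4 libraries lay above the controls. Uqcrc1 had 10.87, 5.78, 7.39 and 5.46, with overlapping groups. The promoter peak of Cox4i1, the largest nuclear-encoded subunit of complex IV, had the narrowest range of the core set, 1.21-fold, with 8.46, 9.38, 8.59 and 7.78. Atp5a1, the alpha subunit of ATP synthase, lacked a promoter peak in control replicate 1, while a region annotated as 5′ UTR at 220 bp from its TSS was found in every library with 13.67, 8.07, 8.55 and 10.97. For Ndufs7 and Ndufs8, iron-sulphur subunits of complex I, no promoter region was found. The region named for Ndufs7 lay in the 3′ UTR of Pwwp3a, and that for Ndufs8 in an intron of Aldh3b1.

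**Figure D2:**
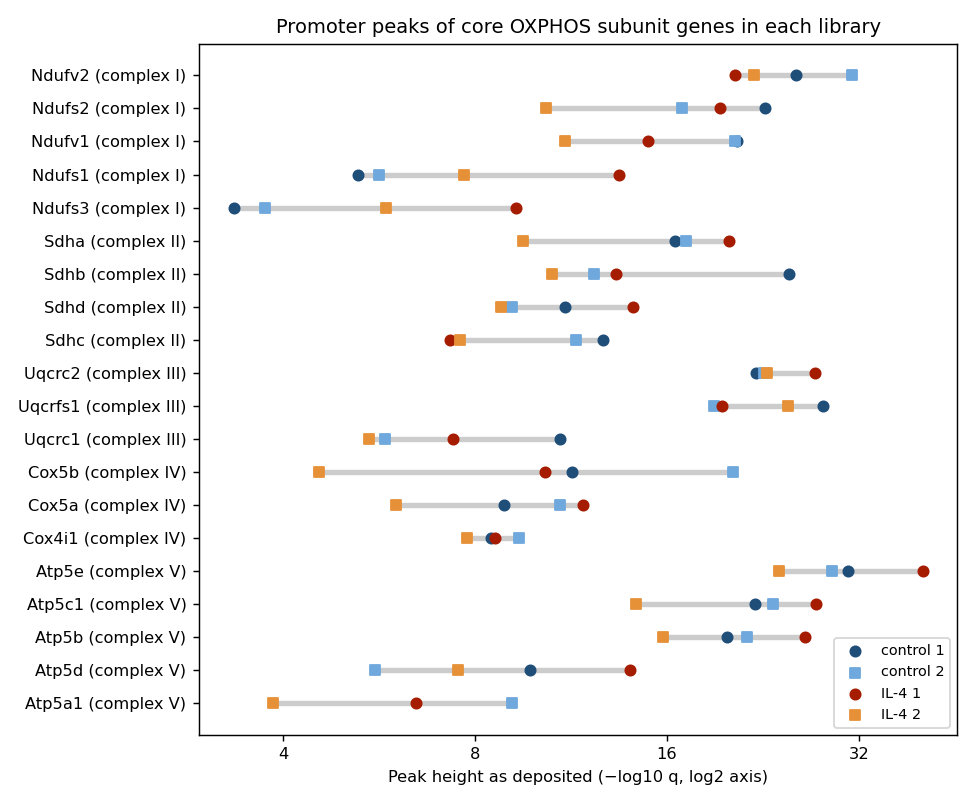
Each row is the promoter region of 1 core OXPHOS gene (the highest where a gene has several), and each point is the peak height (−log10 q, log2 axis) in 1 library, with circles for replicate 1, squares for replicate 2, blue for control and red or orange for IL-4. Grey bars span the libraries. Rows are grouped by complex and ordered by mean height within each complex. The lowest point is at Ndufs3, 3.34, and the highest at Atp5e, 40.37.

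Complexes differed little in the height of their promoters. Each gene was assigned to a complex by its symbol, which need not be its true membership. By this rule Ndufa4 counted with complex I, and Atp5sl, named Dmac2 in RefSeq, with complex V. The median of the mean heights over promoters found in all 4 libraries was 11.6 for complex I (27 regions), 12.3 for complex II (4), 14.5 for complex III (6), 14.3 for complex IV (13) and 12.5 for complex V (12). Over all 62 OXPHOS promoters it was 13.2, against 12.6 over all 7919 promoter regions found in 4 libraries, and 32 of the 62 lay above the latter. Mean heights within complex I alone ran from 4.66 to 30.3, so the spread within a complex was wider than the distance between complexes. The median length of these promoter regions was 418 bp for OXPHOS genes and 424 bp for all genes.

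The highest OXPHOS region of all was not annotated as a promoter. It lay in the 5′ UTR of Cox7c, a small subunit of complex IV, at 114 bp from the TSS, and had heights of 34.9, 47.46, 43.58 and 36.07. The Atp5e promoter came next, and then that of Ndufab1, the acyl carrier protein bound to complex I, with 34.42, 26.75, 29.33 and 31.39. Cox18, an assembly factor that inserts a complex IV subunit into the membrane, had 25.74, 31.39, 35.57 and 20.25. The lowest regions found in all 4 libraries were an intronic region named for Cox4i2 (4.32, 5.63, 4.06 and 2.5), a region upstream of Cox7a2l at −13421 bp (3.93, 5.14, 4.32 and 3.85) and one upstream of Ndufb4 at −30550 bp (5.11, 4.62, 4.18 and 4.72). The promoter of Ndufa7 (2.74, 5.4, 6.52 and 4.89) and an intronic region of Sdhb (7.44, 3.64, 6.64 and 3.12) completed the lowest 5. As deposited, the heights of the groups overlapped at these regions except at the Cox4i2 region, where both IL-4 values lay below both controls. After normalisation the groups overlapped at the Cox4i2 region too, and only the Ndufa7 promoter had both IL-4 values above both controls.

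Matches to factors of mitochondrial biogenesis were counted in RefSeq promoter windows, 94 of which belonged to OXPHOS genes (87 genes, with or without a peak). A match needed the exact letters on either strand. The NRF1 site GCGCATGCG was found in 10 windows (10.6%), against 1.75% of all 32851 windows and 3.99% of the 8949 windows of genes open in all 4 libraries. The relaxed form GCGCANGCG, which contains the first, was found in 24.5%, 6.25% and 14.7%. For YY1 (AAGATGGCG) the shares were 11.7%, 1.40% and 3.39%. For GABP and other ETS factors (CCGGAAG) they were 26.6%, 8.86% and 20.2%. The ERR site TCAAGGTCA was found in 2 OXPHOS windows (2.13%), against 0.423% and 0.223%.

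For other promoter elements, NFY and CREB shares were also highest in OXPHOS windows, by small margins over open windows, whereas those of SP/KLF, TATAAA and STAT were not. The SP/KLF site GGGGCGGGG was found in 14.9% of OXPHOS windows, 11.4% of all windows and 22.6% of open windows. NFY (CCAAT) was found in 42.6%, 37.4% and 41.4%, CREB (TGACGTCA) in 4.26%, 1.79% and 3.46%, and TATAAA in 10.6%, 13.6% and 6.43%. The 4-base STAT6 spacing TTCNNNNGAA was found in 6.38%, 6.95% and 5.39%, and the 3-base STAT spacing TTCNNNGAA in 6.38%, 8.30% and 6.48%. In whole promoter regions in place of windows, the STAT6 spacing was found in 9 of 80 OXPHOS regions (11.2%) against 5.72% of all promoter regions, and the ERR site in 5 (6.25%) against 0.245%. Median GC content was 59.0% in OXPHOS windows, 52.7% in all windows and 61.3% in open windows, and GC-rich letters match more often in GC-rich windows. A match is a string of letters and not a bound site. Windows of one gene can overlap, and no test was made on these shares.

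**Figure D3:**
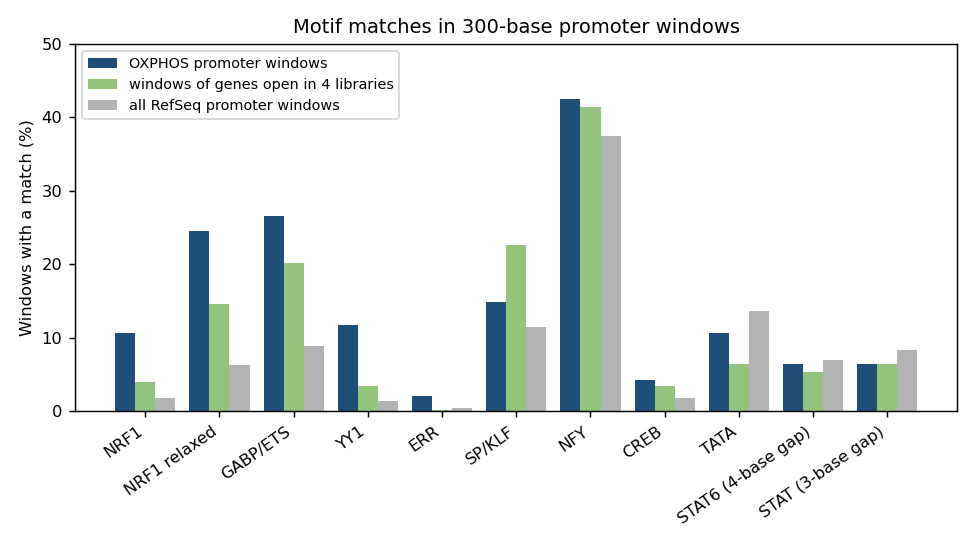
Bars give the share (%) of 300-base promoter windows that hold at least 1 exact match to each motif, for OXPHOS windows (blue, 94), windows of genes open in all 4 libraries (green, 8949) and all RefSeq windows (grey, 32851). The blue bars exceed the green ones for both NRF1 forms, GABP/ETS, YY1, ERR, NFY, CREB, TATA and STAT6, by little for NFY, CREB and STAT6, and fall below them for SP/KLF (14.9% against 22.6%) and the 3-base STAT spacing.

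The comparison of IL-4 with control addressed whether these genes gained or lost accessibility within 1 h. No OXPHOS region passed the test. The log2 heights of 25442 regions found in all 4 libraries were quantile-normalised and compared with limma, and among the 99 OXPHOS regions 0 were called higher and 0 lower at an adjusted p under 0.05. Over all regions 0.0157% were called higher and 0.00786% lower, so that few calls were made anywhere. At an unadjusted p under 0.05, 4 OXPHOS regions were higher (background 4.12%) and 3 lower (background 4.15%), shares near the background. The median log2 change was 0.06 for the OXPHOS regions and 0.00 for all regions. Of the OXPHOS regions, 58 (58.6%) were above 0 and 41 below, against 49.9% above 0 over all regions. Over OXPHOS promoters 58.1% were above 0, against 54.2% over all promoter regions. The 95% interval of a single OXPHOS region had a median half-width of 0.85 on the log2 scale, a 1.81-fold change of height, and it was wider for low than for high regions. The standard error was 0.54 at the low Ndufs3 promoter and 0.19 at the high Cox7c region.

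The count of regions whose normalised heights did not overlap between the groups leaned upward. In 24 of the 99 OXPHOS regions both IL-4 values exceeded both controls (background 19.2%), and in 11 both lay below (background 18.6%). Among the 62 promoters the counts were 22 and 6, while among all 7919 promoter regions they were 1592 and 1184. The counts depended on the scaling, because without normalisation 11 of the 99 OXPHOS regions were higher (background 8.83%) and 20 lower (background 29.3%). With and without normalisation, the share of higher OXPHOS regions lay above its background and that of lower ones below it. No test was made on these shares. Without normalisation the median of all regions itself moved to −0.21 and that of the OXPHOS regions to −0.16.

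Among roles, the assembly and coupling factors stood highest. Of their 15 regions found in all 4 libraries, 12 (80.0%) had a change above 0, against 49.9% of all regions and 54.2% of all promoter regions. Promoters made up 11 of the 15. For both replicate numbers the IL-4 library lay above the control in 7 of the 15 and below it in 1. Over all 25442 regions these counts were 6867 and 6790. Cox10 and Ndufaf6 each gave 2 of the 15. The median was 0.32 on the log2 scale, against 0.05 for the 25 core regions and 0.01 for the 59 regions of other subunits. Without normalisation 9 of the 15 were above 0, with a median of 0.10. Without control replicate 1 the count was also 9 of 15, with a median of 0.21, and without IL-4 replicate 1 it was 12 of 16, with a median of 0.21. None of the 15 passed the test, and their lowest adjusted p in limma was 0.577. Cox19, a factor of copper delivery to complex IV, had heights of 6.09 and 4.48 in the controls and 12.85 and 6.86 after IL-4. Ndufaf2, a chaperone of late complex I assembly, had 21.02 and 21.92 in the controls and 26.07 and 23.21 after IL-4. In both genes the IL-4 libraries lay above the controls. By complex, the median change was 0.10 for complex I, −0.01 for complex II, 0.08 for complex III, 0.06 for complex IV and 0.07 for complex V.

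The 5 largest increases by the moderated statistic were all at promoters. Those of Ndufs3, Ndufs1 and Atp5h lay head to head with Kbtbd4, Eef1b2 and Kctd2, so that their peaks cannot be assigned to 1 gene. Ndufs3 (chr2:90904296-90904763) changed by 1.28 ± 0.54 (log2, SE, n = 2 libraries per group, limma adjusted p = 0.530) and Ndufs1 (chr1:63176639-63176911) by 1.14 ± 0.51 (limma adjusted p = 0.553). The 95% intervals were 0.19 to 2.37 and 0.12 to 2.16. The promoter of Atp5h, a peripheral stalk subunit of ATP synthase, had heights of 13.86 and 9.37 in the controls and 19.9 and 14.45 after IL-4. Its change was 0.79 ± 0.37. Cox19 followed with 1.10 ± 0.52. Cox7a2l, counted here with complex IV, had 11.94 and 14.26 in the controls and 21.74 and 14.65 after IL-4. Its change was 0.67 ± 0.35. In all 5 genes the higher of the IL-4 heights came from replicate 1. Adjusted p-values of the last 3 ran from 0.567 to 0.626 in limma.

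**Figure D4:**
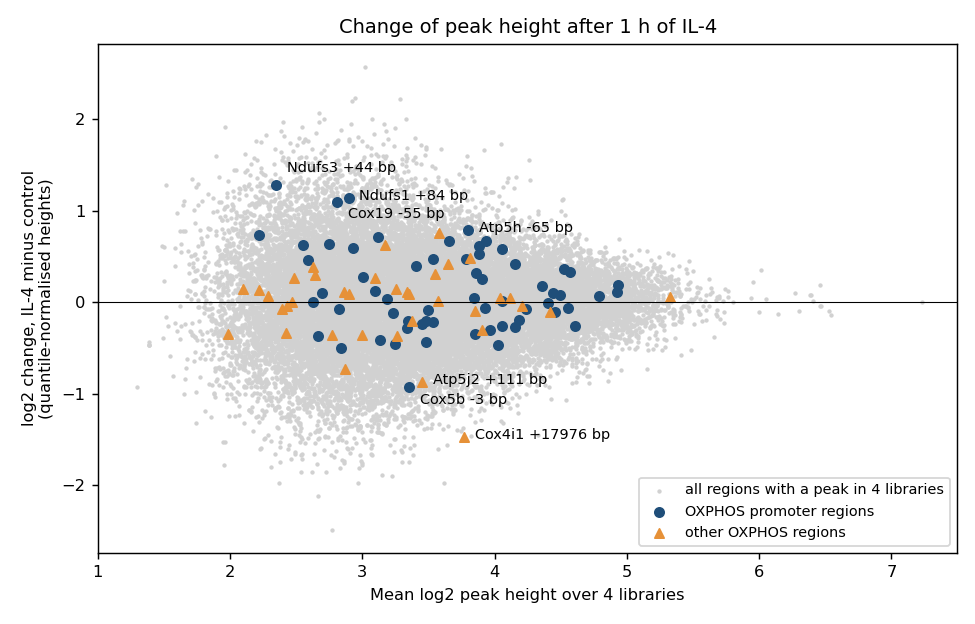
The log2 change of normalised height (IL-4 minus control) is plotted against the mean log2 height of 4 libraries, with all 25442 regions in grey, the 62 OXPHOS promoters as blue circles and the 37 other OXPHOS regions as orange triangles. The Cox4i1 region at 17976 bp, with a change of −1.48, lies at the lower edge of the grey cloud for its height, and the Ndufs3 promoter, at 1.28, is the highest OXPHOS point.

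The largest decrease was outside promoters. A region between genes at chr8:120686045-120686470, 17976 bp from the TSS of Cox4i1, had heights of 21.49 and 28 in the controls and 5.98 and 9.66 after IL-4. Both IL-4 values lay far below both controls. Its change was −1.48 ± 0.38 (log2, SE, n = 2 libraries per group), with a 95% interval from −2.24 to −0.71, a limma unadjusted p of 2.9e-04 and an adjusted p of 0.173. Over the other settings of the fit and with each library left out, the change ran from −1.96 to −0.96 and the adjusted p stayed above 0.05, with its lowest value of 0.0644 in a fit with the replicate number as a block. The promoter of Cox4i1 itself changed by 0.12 and did not pass the test either. The region also lay upstream of Irf8, a transcription factor of the myeloid lineage, at −50101 bp from its TSS, and the name Cox4i1 follows from distance alone. The peak list gives no evidence on which gene it serves. Its central 300 bases, chr8:120686108-120686407 on the plus strand, are printed because the region showed the strongest change of the set. They held no STAT6 or STAT spacing. An NFY match, ATTGG on this strand, is left in lower case.
Cox4i1 distal region: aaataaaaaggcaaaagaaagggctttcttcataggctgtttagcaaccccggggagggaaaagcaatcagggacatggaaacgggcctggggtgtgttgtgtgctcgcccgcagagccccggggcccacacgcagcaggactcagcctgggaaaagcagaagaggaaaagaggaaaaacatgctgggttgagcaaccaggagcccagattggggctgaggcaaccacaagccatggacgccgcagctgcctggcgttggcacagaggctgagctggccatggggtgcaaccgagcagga

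**Figure D5:**
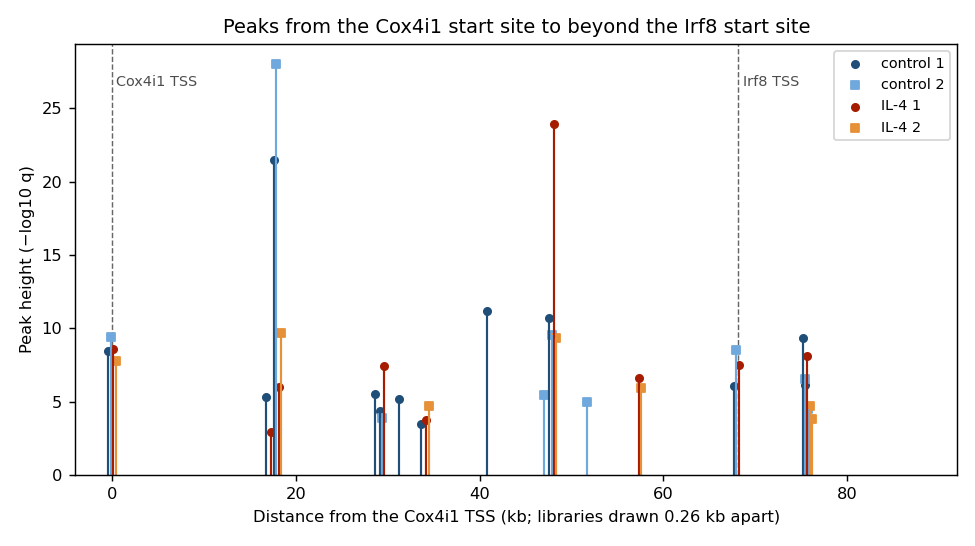
Vertical lines with points give the peak height (−log10 q) of each library at every region from the Cox4i1 TSS to beyond the Irf8 TSS, against the distance from the Cox4i1 TSS (kb), with dashed lines at both start sites. Near 18 kb the control libraries reach 21.49 and 28 and the IL-4 libraries 5.98 and 9.66, while the 4 libraries lie between 7.78 and 9.38 at the Cox4i1 promoter.

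The other decreases were smaller. Atp5j2, a membrane subunit of ATP synthase, had a region in its first part at 111 bp from the TSS with 16.2 and 15.84 in the controls and 9.26 and 6.03 after IL-4, a change of −0.88 ± 0.42 (limma adjusted p = 0.586). At the Cox5b promoter the change was −0.93 ± 0.46 (limma adjusted p = 0.592), but it came from the libraries numbered 2 (−1.88), while those numbered 1 differed by 0.02. An intronic region named for Ndufb9 at 55228 bp from its TSS had 11.91 and 8.84 in the controls and 5.48 and 4.97 after IL-4. Of the 7 regions named for Ndufb9, 6 were annotated to another gene. The Ndufv1 promoter, whose gene encodes the NADH-binding subunit of complex I, had 20.63 and 20.45 in the controls and 14.92 and 11.07 after IL-4, a change of −0.47 ± 0.33. The groups did not overlap at the Atp5j2, Ndufb9 and Ndufv1 regions.

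Regions found in 1 group only were about as rare in the OXPHOS set as over all regions. Both IL-4 libraries and neither control had a peak in 3 OXPHOS regions (1.52% of 197, background 2.53%). Both controls and neither IL-4 library had one in 8 (4.06%, background 4.33%). With counts this small, both shares were near the background. The 3 gained peaks were low. The region in an intron at −34042 bp from the TSS of Ndufa13, a complex I subunit also known as a STAT3 partner, had heights of 4.88 and 3.56. The region in an intron of Ankrd17, named for Cox18 at −47429 bp, had 5.34 and 2.49. The region in the first part of Atp5g3, which encodes the ring-forming subunit c of ATP synthase, had 4.32 and 8.78 at 626 bp from its TSS.

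Of these 3 gained regions, the Ndufa13 region held the STAT6 spacing and the 3-base STAT spacing, and the others held neither. Over all IL-4-only regions 30.9% held the STAT6 spacing, over all control-only regions 2.24%, and over all regions found in 4 libraries 8.92%. Of the 8 OXPHOS control-only regions 0 held it, and of the 99 OXPHOS regions found in 4 libraries 12 did (12.1%). The Ndufa13 region, chr8:69936496-69936728, is printed on the plus strand with both spacings in capitals, the 3-base form first.
Ndufa13 IL-4-only region: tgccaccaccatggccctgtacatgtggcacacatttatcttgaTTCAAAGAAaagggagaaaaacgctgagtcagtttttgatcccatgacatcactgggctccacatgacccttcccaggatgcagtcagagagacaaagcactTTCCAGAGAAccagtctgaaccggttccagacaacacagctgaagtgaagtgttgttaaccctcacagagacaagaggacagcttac

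The 8 peaks found only in controls were spread over complexes. They comprised 2 regions between genes downstream of Ndufa10 (8.79 and 4.95, and 2.81 and 5.91), the promoter of Ndufa11 (5.57 and 2.48) and a region at −25985 bp from Uqcrfs1 (2.44 and 2.66). The others were a region in the 3′ UTR of Gpd1 named for Cox14 (4.08 and 2.86), an intron of Atp5c1 (5.7 and 4.89), a region at −62683 bp from Atp5g3 (5.65 and 10.14) and one at 15535 bp from the Atp5l TSS (7.38 and 6.98). The number of such regions moved with the libraries used. With 1 library left out, the IL-4-only count ran from 6 to 15 and the control-only count from 13 to 28, since the rule then asked for presence in, or absence from, a single library of 1 group.

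Far from promoters, a name in the OXPHOS set often marked another gene. Of the 53 intronic regions, 28 lay in the named gene itself, 20 in another gene and 5, all named for Ndufa13, in a transcript that could not be matched. All 5 regions in 3′ UTRs lay in other genes. More than 10 kb from any TSS lay 74 OXPHOS regions (37.6%), against 56.7% of all regions. Atp5o, the oligomycin sensitivity subunit of ATP synthase, named 12 regions, the most of any OXPHOS gene, and 7 of them lay inside Itsn1, an endocytic scaffold gene. The farthest of these found in every library was at 90459 bp from the Atp5o TSS, with heights of 8.8, 13.05, 9.02 and 10.41. The others among the 5 farthest were Itsn1 regions at 82581 bp (11.88, 12, 11.82 and 5.06), 79613 bp (12.19, 11.45, 16.35 and 10.86) and 61842 bp (24.92, 13.31, 16.34 and 16.77), and a region in Mtss1 at 70336 bp from the Ndufb9 TSS (19.43, 16.48, 11.93 and 13.19). As deposited, the IL-4 heights lay below the controls at the Mtss1 region and at 82581 bp, and the groups overlapped at the other 3. After normalisation they stayed below at the Mtss1 region, while the groups overlapped at 82581 bp. At 79613 bp both normalised IL-4 heights lay above both controls.

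Other genes of the pathway were taken from a list of 41 further subunits and assembly factors that the rule left out, such as Cyc1, Surf1 and the Sdhaf genes. Of these, 29 named a region. Their 35 regions found in all 4 libraries split into 17 above and 18 below 0, with 0 called in limma and 0 higher and 3 lower at an unadjusted p under 0.05 (background 4.12% and 4.15%). Of 22 regulators of mitochondrial biogenesis, 15 named a region, and their 23 shared regions split into 12 above and 11 below 0, with 0 called and 0 at an unadjusted p under 0.05. Tfam, which packages and transcribes mitochondrial DNA, had promoter heights of 20.79 and 18.56 in the controls and 26.74 and 22.41 after IL-4, with a change of 0.49 ± 0.27 (limma adjusted p = 0.647). The IL-4 values lay above the controls.

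The promoters of Esrra, Nrf1 and Gabpa, which encode the factors whose motifs were counted above, did not pass the test. Esrra had 21.32 and 25.55 in the controls and 13.08 and 19.53 after IL-4, a change of −0.36 ± 0.31. Nrf1 changed by −0.33 ± 0.53 and Gabpa by −0.12 ± 0.22, and each of the 3 changes took the opposite sign in at least 1 other setting. Ppargc1b, a coactivator of OXPHOS genes known for its role in alternatively polarized macrophages, had promoter heights of 3.2 and 5.8 in the controls and 3.86 and 9.44 after IL-4, a change of 0.70 ± 0.57 (limma adjusted p = 0.804) that fell to −0.10 without IL-4 replicate 2. A region upstream of its TSS at −1426 bp had a peak in both IL-4 libraries (5.53 and 5.3) and in neither control, as did 2.53% of all regions. Of the 45 regions of the regulators, 1 was IL-4-only and 1 control-only. The highest Ppargc1b region, in an intron at 5473 bp, had 30.9 and 22.55 in the controls and 23.82 and 26.06 after IL-4. Its change was 0.05. An intronic region at 1379 bp had 10.16 and 5.32 in the controls, 8.16 in IL-4 replicate 1 and no peak in IL-4 replicate 2.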

How the data were processed

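ATAC-seq peaks of wild-type mouse BMDMs (2 control and 2 IL-4 libraries) were analysed. Per the labels and methods, the authors aligned reads to mm10 with BWA 0.7.10, called peaks in each library on its own with MACS2 2.0.10, removed blacklisted regions and annotated peaks with HOMER 4.2 against RefSeq. SAMtools 0.1.19 is also listed in the submitters' processing notes. The handling of duplicates, mitochondrial reads and the Tn5 offset is not given in the sources used here. The deposited peak score was read as −log10 of the q-value, since the lowest scores, 1.3 and 1.32, are close to −log10 of 0.05. The methods name q of 0.01, a score of 2, yet between 133 and 603 peaks per library score under it. The deposited lists hold no reads, so depth is unknown and the tests that the study ran on reads were not repeated.

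Peaks on the nuclear chromosomes were merged at 1 bp overlap. For each region the top score per library was kept, and the top peak gave the annotation. For regions with a peak in every library, quantile normalisation of log2 heights was followed by a fit over all regions with limma (version 3.58.1, R version 4.3.3), using lmFit and eBayes with the trend option. P-values were adjusted after Benjamini and Hochberg, and regions under 0.05 were called. The fit was tested on simulated data. Promoter windows came from RefSeq (GRCm38.p6), and 94 of 94 equalled the genome at their coordinates, read with samtools 1.23.1. All 91 gene names were matched to RefSeq through gene IDs.

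Regions named with values were core promoters, the 5 highest and 5 lowest, the 5 largest increases and decreases, all group-specific regions, the 5 farthest from a TSS, and the highest promoter of 5 regulators. A few others (Cox19 and Ndufaf2 among assembly factors, and the regions near Atp5j, Atp5a1 and Ppargc1b) were chosen after their values were seen. The members, lists and tests were chosen with earlier results of these data known. Alternatives covered the scaling, the trend, the replicate block, a score of at least 2, regions in at least 2 libraries, a 500 bp merge, other definitions of a member or promoter, and each library left out.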

Additional observations from a re-analysis of the deposited data

Results flagged for a closer look

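Peaks on the mitochondrial genome, which encodes the remaining OXPHOS subunits, were left out of the comparisons. In IL-4 replicate 2 both stretches with peaks were higher than in the control libraries. The first, chrM:37-2915 on mm10, overlaps mt-Rnr1, mt-Rnr2 and ND1 and had a highest peak of 11.63 in IL-4 replicate 2, against 5.38 and 5.28 in the controls and 4.97 in IL-4 replicate 1. The second, chrM:13516-16255, overlaps ND5, ND6 and CYTB and had 12.82 against 6.97, 6.75 and 5.94. Within the IL-4 group 1 library lay above and the other below both controls. IL-4 replicate 2 also had the lowest nuclear peak heights, and how far the mitochondrial reads of that library bear on its heights was not tested.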

How the results depend on the processing

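In every setting run, 0 OXPHOS regions were called by limma, and of 165 alternative values for 15 named regions 159 kept their direction. The 6 that turned were all at regulators. Gabpa turned under median scaling (0.014) and without control replicate 1, with a range of −0.35 to 0.11 over the libraries left out. The same range was −0.80 to 0.13 for Nrf1, which turned without control replicate 2 and without IL-4 replicate 1, and −0.77 to 0.065 for Esrra, which turned without IL-4 replicate 1. For Ppargc1b it was −0.10 to 1.52, and the change turned without IL-4 replicate 2. Without normalisation, the median change of the OXPHOS regions was −0.16, 0 regions were higher at an unadjusted p under 0.05, and 11 regions were higher and 20 lower without overlap. With regions found in at least 2 libraries, missing heights set to the lowest score, 6 were lower at an unadjusted p under 0.05. With 1 library left out, 1 to 4 were higher and 1 to 3 lower at that threshold, and the IL-4-only count ran from 6 to 15 and the control-only count from 13 to 28. A promoter defined as a centre within 1000 bp of the TSS gave a share of 50.3%. In whole promoter regions NFY fell to 31.2% and TATAAA to 2.5%, and the STAT6 spacing was at 11.2%. Replicates with one number share no stated donor or day, and their deviations correlated at 0.007 over regions. With the replicate number as a block, 14 of all regions were called (11 higher and 3 lower) against 6 (4 and 2) without it, 0 of them in the OXPHOS set. Without the variance trend 0 regions were called anywhere. Depth is unknown, so a height difference and a depth difference between libraries cannot be told apart.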
